A study of Mus musculus with 8 samples.

Results

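The genes described here encode the translation initiation factors (eIF1 to eIF6) and the elongation factors (eEF1 and eEF2), with the kinases, binding proteins, methyltransferases and pseudogenes that carry the same symbols. Members were taken by symbol, as every gene whose name begins with Eif followed by a digit from 1 to 6, or with Eef1 or Eef2. The Y-linked Eif2s3y was left out by that rule. This gave 70 of the 16896 genes that the deposited tables hold. The rule reads symbols and no measured value, and the symbols were matched to a gene annotation for all 70.

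Newly made RNA was measured by TT-seq, in which cells take up 4-thiouridine (4sU), a uridine analogue, and the labelled RNA is drawn out and sequenced. The pulse was 500 nM 4sU for 5 min in ES-E14TG2a (E14) mouse embryonic stem cells, a line of male origin, and all groups received it. The lines carried the K122A change, lysine to alanine (written A against WT), in histone H3.3, which the genes H3f3a and H3f3b encode. Wildtype cells gave 3 biological replicate libraries. Single-targeted lines, 2 in number, had 2 of 4 alleles mutant: one was H3f3a A/A with H3f3b WT/WT, the other H3f3a WT/WT with H3f3b A/A. Dual-targeted lines, 3 in number, had 3 mutant alleles. Of these, 2 were clones with H3f3a A/A and H3f3b WT/A, called the clones below. The other had H3f3a WT/A and H3f3b A/A and is called the H3f3a-heterozygous line. Each mutant line kept at least 1 wildtype allele and gave 1 library, so replicate error in mutant groups is the variation between lines. The labels describe growth in LIF medium and in LIF with 2 inhibitors, and do not assign a medium to these libraries. The labelled RNA was taken from whole cultures, so fewer cells making an RNA and less of it made per cell cannot be told apart.

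Translation begins when the small ribosomal subunit, held open by eIF1, eIF1A and the large eIF3 complex, receives the initiator tRNA from eIF2 bound to GTP. The eIF4F proteins bring it to the capped end of the mRNA, eIF5 and eIF5B complete the choice of start codon and the joining of the large subunit, and eIF2B recharges eIF2. In elongation eEF1A delivers aminoacyl-tRNAs, the eEF1B complex recharges eEF1A, eEF2 moves the ribosome along and eIF5A eases stalled peptide bonds. Kinases and binding proteins hold these steps back: the eIF2 kinases act on eIF2, the 4E-BPs on the cap-binding eIF4E, and eEF2 kinase on eEF2. What is measured below is the new RNA of these genes, not their proteins or the rate of translation.

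The sequences just upstream of annotated starts are given for 5 of the members that stood furthest from wildtype at the adjusted p, so that their base composition and motifs can be seen. They come from RefSeq on GRCm38.p6, read 5′ to 3′ on the gene's strand, and each is limited to bases outside annotated exons. Capitals mark any of 8 motifs searched on both strands. The Eif2s2 window, chr2:154892936-154893085 on the minus strand, ends 29 bases before the RefSeq start. The Eif5a window, chr11:69921959-69922108 on the minus strand, lies before the first of 6 starts listed. The Eif3b window is chr5:140419155-140419304 and the Eif5b window chr1:37997894-37998009, both on the plus strand. The Eef2k window is chr7:120842681-120842830 on the plus strand, before the first of 3 starts, and holds 1 CACGTG E-box.
Eif2s2: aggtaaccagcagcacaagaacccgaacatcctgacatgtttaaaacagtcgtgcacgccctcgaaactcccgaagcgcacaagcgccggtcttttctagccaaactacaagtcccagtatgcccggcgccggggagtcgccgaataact
Eif5a: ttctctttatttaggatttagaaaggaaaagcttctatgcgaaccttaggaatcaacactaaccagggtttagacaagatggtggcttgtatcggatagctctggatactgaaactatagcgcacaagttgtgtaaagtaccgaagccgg
Eif3b: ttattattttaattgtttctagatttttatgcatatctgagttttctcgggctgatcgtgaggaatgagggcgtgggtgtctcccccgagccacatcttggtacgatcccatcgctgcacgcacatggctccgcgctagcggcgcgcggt
Eif5b: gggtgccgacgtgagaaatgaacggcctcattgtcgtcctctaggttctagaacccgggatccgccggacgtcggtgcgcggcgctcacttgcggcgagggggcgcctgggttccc
Eef2k: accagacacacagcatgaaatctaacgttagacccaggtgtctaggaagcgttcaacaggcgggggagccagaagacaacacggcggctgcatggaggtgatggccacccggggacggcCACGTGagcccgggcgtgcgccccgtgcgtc
The other 4 windows held none of the 8 motifs, which says only that these letters were not in these windows. The longer start regions described next held the NRF1 motif for Eif2s2 and TATAAA for Eif3b. Those shown are members at an adjusted p under 0.01 with enough bases free of annotated exons in the table used. Other members at that threshold, Eif1a among them, are not shown. Too few such bases was not the only ground for leaving a member out.

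RefSeq start regions, 250 bases before to 50 after the first listed start, were matched for 51 of the 70 members and for 10860 genes of the tables. The E-box CACGTG was present in 12 of 51 members (23.5%) and in 10.3% of all matched genes. The ETS motif CCGGAAG was present in 15 members (29.4%) and in 18.2% of all. The GC box GGGCGG was in 72.5% of members and 64.7% of all, CCAAT in 31.4% and 39.1%, and the NRF1 motif (GCGC, any base, TGCGC) in 11.8% and 10.4%. TATAAA was found in 7.84% of members and 6.74% of all. TGACGTCA was found in 1.96% and 3.28%, and TGATGCAA in 0 members and 0.552% of all. None of these strings contains another. A C followed by 4 pyrimidines at the listed start, the form of a 5′ terminal oligopyrimidine mRNA, was seen in 2 members (3.92%) and in 2.47% of all genes. Only the exact base of the first listed start was read, so a start listed a few bases off would be missed. These shares therefore do not show how many members have such mRNAs. Among the members whose new RNA rose in dual-targeted lines, 4 of 17 matched start regions held the E-box and 6 held the ETS motif. Among those not called there, the numbers were 7 and 9 of 33. Median GC content was 56.7% in the first set, 62.7% in the second and 61% over all matched genes.

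The deposited files held 4 tables of the authors' own comparisons and no values per library, so depth per library is unknown. Each table gives a mean of normalised counts, a log2 fold change with its standard error (SE), a p-value and an adjusted p. Members had mean counts of 13.1 to 17071 in the authors' deposited table of dual-targeted lines against wildtype, with a median of 707 where all genes had 144. All 69 members of that table had an adjusted p, as did 67 of 70 for single-targeted lines, 66 of 69 for dual-targeted against single-targeted and 69 of 69 for the clones. Eif4e3, a cap-binding relative of eIF4E, was listed in the single-targeted comparison alone, at a mean count of 11.3 in the authors' deposited table. A gene is called at an adjusted p under 0.05, and every fold change below is log2 as the authors deposited it, shrunken towards 0. Group means were rebuilt from the 4 mean columns by subtraction and scaled to give every group the same median ratio to wildtype. They have no error. Gene positions are on GRCm38. The comparisons share libraries: 3 of them share the 3 wildtype libraries, and the clones are part of the dual-targeted group.

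All 7 embryonic stem cell markers were present, and their rebuilt counts summed to 14589 in wildtype, 14070 in single-targeted and 16425 in dual-targeted lines. In dual-targeted lines 3 of the 7 rose and 0 fell, namely Pou5f1 (0.75), Nanog (0.49) and Utf1 (0.68), in the authors' deposited table. Over all genes of that comparison 10.8% were higher and 10.1% lower. Nanog also rose in single-targeted lines, by 0.68 ± 0.20 (adjusted p = 0.00468) in the authors' deposited table. It was the 1 of the 7 called there and 0 fell, where 1.49% of all genes were higher and 1.47% lower. Of 24 markers of fibroblasts and of other embryonic lineages, 10 were not listed in the dual-targeted table, among them Col1a1, Sox17, Cdx2 and T. The 11 found in all 4 tables summed to 779 in wildtype, 738 in single-targeted, 789 in the clones and 1428 in the H3f3a-heterozygous line. Of the 14 in the authors' deposited table of dual-targeted lines, 4 rose (Nes, Tubb3, Krt8 and Kdr) and 0 fell. In the clones Nes (1.36), Tubb3 (1.10) and Kdr (1.52) rose and Pax6 (-0.58) fell, by the authors' deposited table. All genes gave 9.05% higher and 10.3% lower in the clones. The 4 neural markers summed to 365 in wildtype, 281 in single-targeted lines, 472 in the clones and 762 in the H3f3a-heterozygous line. They did not move together. In dual-targeted lines Pax6 (-0.33) and Sox1 (-0.32) were below 0 and not called in the authors' deposited table. From wildtype to the H3f3a-heterozygous line the rebuilt mean of Nes went from 38 to 387, and that of Sox1 from 56 to 12. The part of these markers in the values of the factor genes was not tested.

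In dual-targeted lines, 25 of 69 factor genes rose against wildtype and 1, Eef2k, fell, while 43 were not called. Of the eIF3 subunit genes 11 of 14 rose, and the largest rises were those of Eif2s2, Eif5a and Eif1a among genes with mean counts above 1000. The 25 make up 36.2% of the members, while over all genes the share called in the authors' deposited table was 20.9%, with 10.8% higher and 10.1% lower. Among genes whose mean count was at least 500, the authors' deposited table had 15.2% higher and 10.3% lower. The members' median log2 fold change was 0.34 in that table, against 0.01 for all genes, and 60 of 69 lay above 0. Individual values ran from -0.86 to 1.35 in the authors' deposited table. The median SE of a member was 0.20 there, so a gene at the members' median was not called by itself. At an unadjusted p under 0.05 the count was 37 of 69 (53.6%), against 32.7% of all genes. With a stricter adjusted p under 0.01, 9 members stayed higher.

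**Figure D1:**
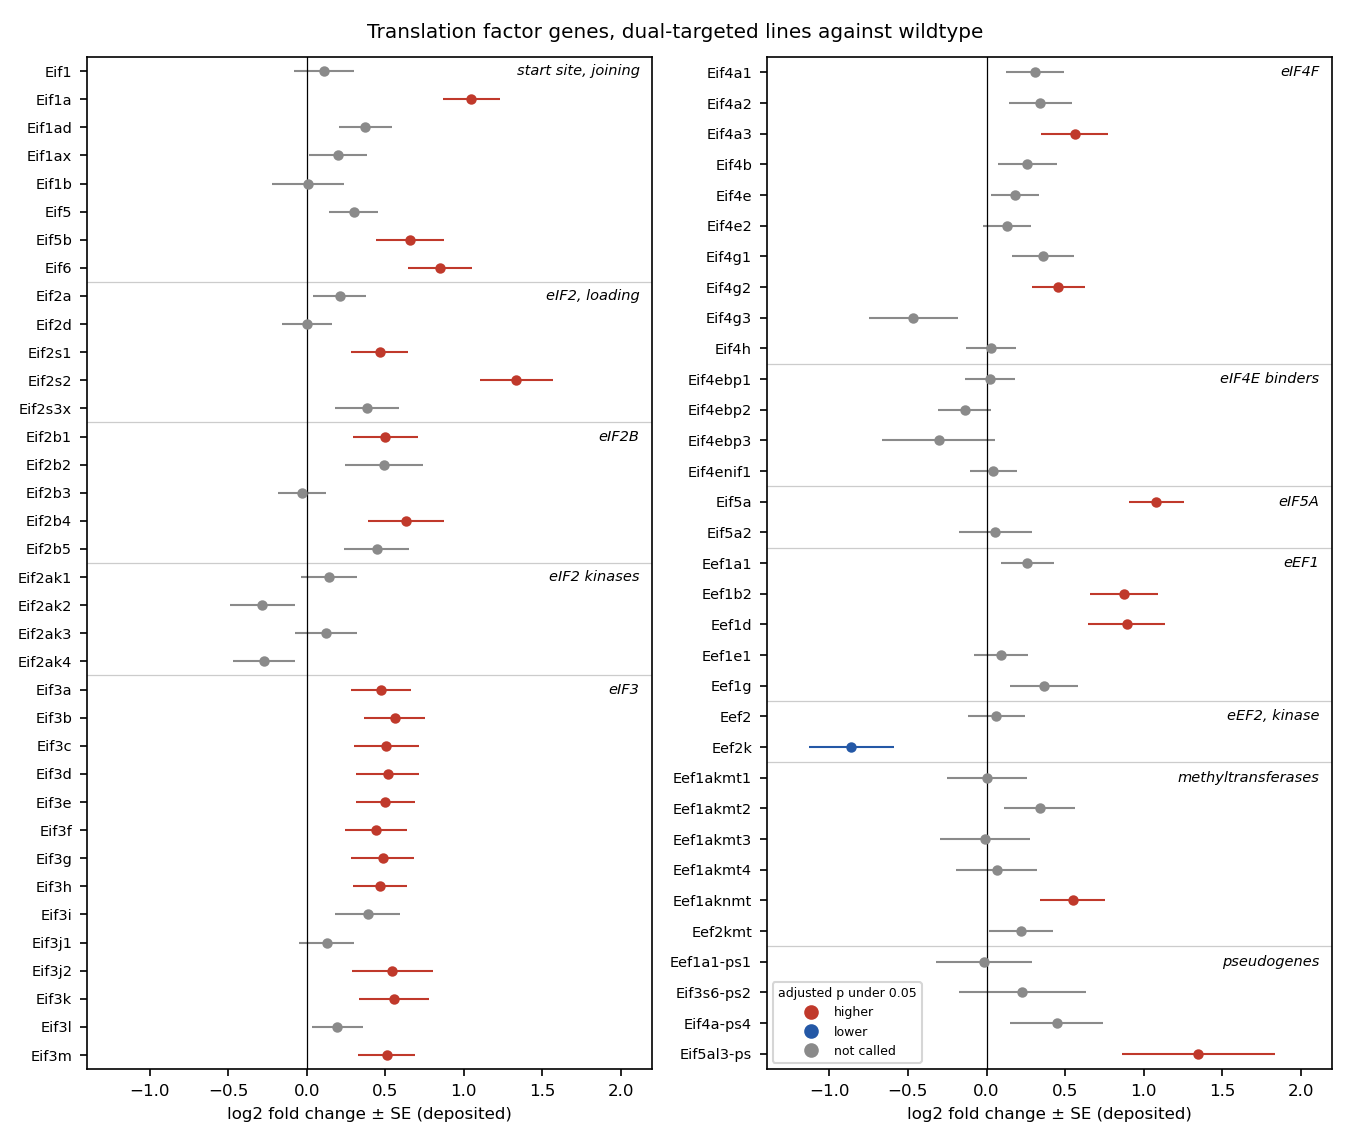
Log2 fold change with its standard error for each of 69 members, dual-targeted lines against wildtype, from the authors' deposited table, grouped by role. Red points are higher and blue lower at an adjusted p under 0.05, and grey points are not called. The 11 red eIF3 genes lie close together, and Eef2k is the single blue point.

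Of the factors that select the start codon and join the subunits, 3 of 8 rose. Eif1a encodes a form of eIF1A, which keeps the scanning subunit open. Its rebuilt mean count was 1220 in wildtype, 1509 in single-targeted lines, 2584 in the clones and 2618 in the H3f3a-heterozygous line. Both dual-targeted genotypes stood above the other groups by more than those 2 differed. Here and for the genes below, the call was made on these same dual-targeted lines, which favours rebuilt means above wildtype in both genotypes. Its log2 fold change in the authors' deposited table was 1.05 ± 0.18 (SE; adjusted p = 9.15e-08). Eif1a lies on chromosome 18 from 46597701 to 46616456. Its X-linked relative Eif1ax had 0.20 in the authors' deposited table (adjusted p = 0.413).

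Eif6 encodes eIF6, which keeps the large subunit from joining too early. Its rebuilt mean was 468 in wildtype and 411 in single-targeted lines, and 921 and 794 in the clones and the other line. The authors' deposited table gave it 0.85 ± 0.20 (adjusted p = 1.06e-04; chromosome 2, 155819832 to 155826925). Eif5b, the GTPase of subunit joining, had rebuilt means of 1965, 2154, 3283 and 3239 in the same order. Its fold change in the authors' deposited table was 0.66 ± 0.22 (adjusted p = 0.00603), and the gene spans 37998010 to 38055579 of chromosome 1. Here too both dual-targeted genotypes lay above the wildtype and single-targeted means. The 5 not called were Eif1, Eif1ad, Eif1ax, Eif1b and Eif5, from 0.01 (Eif1b) to 0.37 (Eif1ad, adjusted p = 0.0622) in the authors' deposited table.

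eIF2 carries the initiator tRNA and has 3 subunits. The beta subunit gene Eif2s2 (chromosome 2, 154871410 to 154892935) had a rebuilt mean count of 2794 in wildtype and 3932 in single-targeted lines. It reached 8098 in the clones and 5801 in the H3f3a-heterozygous line, so the order ran from wildtype through single-targeted to dual-targeted. The authors' deposited table gave 1.34 ± 0.23 (SE; adjusted p = 6.05e-08). The alpha subunit gene Eif2s1 (chromosome 12, 78861819 to 78887010) also rose, by 0.46 ± 0.18 (adjusted p = 0.0266) in the authors' deposited table. The authors' deposited table had the gamma subunit gene Eif2s3x at 0.38 ± 0.20 (adjusted p = 0.103), not called. The alternative tRNA-loading factors Eif2a and Eif2d had 0.21 and 0.00 in the authors' deposited table and were not called.

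eIF2B, which exchanges the nucleotide on eIF2, has 5 subunits, and 2 rose. Eif2b4 (chromosome 5, 31187558 to 31193430) stood at 0.63 ± 0.24 in the authors' deposited table (adjusted p = 0.0161), with rebuilt means of 159 in wildtype, 156 in single-targeted lines, 271 in the clones and 248 in the other line. Eif2b1 (chromosome 5, 124570213 to 124579131) stood at 0.50 ± 0.21 (adjusted p = 0.0329) in the authors' deposited table. Eif2b2 had 0.49 ± 0.25 (adjusted p = 0.0696) and was the uncalled member with the largest value in the authors' deposited table. Eif2b5, at 0.45 ± 0.21 (adjusted p = 0.058), was likewise uncalled by the authors' deposited table. Eif2b3 was at -0.03 ± 0.15 (adjusted p = 0.903) in the authors' deposited table, with rebuilt means of 860 in both wildtype and single-targeted lines.

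The 4 kinases that phosphorylate eIF2 alpha gave 0 calls. Eif2ak1, the haem-regulated kinase, had 0.14, and Eif2ak3, the kinase of the unfolded protein response, had 0.12 in the authors' deposited table. Eif2ak2, which senses double-stranded RNA, had -0.28, and Eif2ak4, which senses uncharged tRNA, had -0.27 in the authors' deposited table. Adjusted p-values ran from 0.265 to 0.664 over the 4.

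eIF3 is the largest initiation complex and holds the small subunit ready for mRNA. Of its 14 genes, 11 rose, and all 14 lay above 0, from 0.13 to 0.56 with a median of 0.49 in the authors' deposited table. The authors' deposited table placed the 11 between 0.44 and 0.56, a range narrower than the SE of any of the 11 alone. The highest was Eif3b, the scaffold subunit (chromosome 5, 140419328 to 140443360), at 0.56 ± 0.19 (adjusted p = 0.009996) in the authors' deposited table. Rebuilt means of Eif3b were 1291 in wildtype, 1077 in single-targeted lines, 1973 in the clones and 2015 in the other line. The single-targeted mean lay below wildtype, and both dual-targeted genotypes lay above it. Eif3k followed at 0.56 ± 0.22 (adjusted p = 0.0238), from chromosome 7, 28971372 to 28981864, in the authors' deposited table. Eif3a, the subunit that nucleates the complex (chromosome 19, 60761117 to 60790658), had 0.47 ± 0.19 (adjusted p = 0.0313) in the authors' deposited table, with rebuilt means from 5856 in single-targeted lines to 9189 in the clones.

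Among the other core subunits, Eif3d, which can itself bind a cap (chromosome 15, 77958998 to 77970813), had 0.52 ± 0.20 (adjusted p = 0.0222) in the authors' deposited table. Eif3c (chromosome 7, 126546455 to 126566411) had 0.51 ± 0.21 (adjusted p = 0.028), and Eif3m (chromosome 2, 104999656 to 105017080) had 0.51 ± 0.18 (adjusted p = 0.0141), by the authors' deposited table. Eif3e (chromosome 15, 43250058 to 43282719) stood at 0.50 ± 0.19 (adjusted p = 0.02) in the authors' deposited table. These 4 genes lie on 3 chromosomes and had nearly the same fold change.

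The authors' deposited table gave Eif3g (chromosome 9, 20894349 to 20898623) 0.48 ± 0.20 (adjusted p = 0.0341) and Eif3h (chromosome 15, 51786558 to 51865523) 0.47 ± 0.17 (adjusted p = 0.0175). Eif3f (chromosome 7, 108934417 to 108942951) stood near the threshold at 0.44 ± 0.20 (adjusted p = 0.0497) in the authors' deposited table. Eif3j2, a near copy of Eif3j1 on chromosome 18 (43475418 to 43477796), had 0.55 ± 0.26 (adjusted p = 0.0474) in the authors' deposited table. Reads of these 2 copies may be shared, so their split is uncertain. The 3 not called were Eif3i at 0.39 (adjusted p = 0.106), Eif3l at 0.20 and Eif3j1 at 0.13 in the authors' deposited table. Without the loosely bound eIF3j, 10 of 12 subunit genes rose.

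Of the 10 genes grouped here with eIF4F, the complex that binds and unwinds the capped mRNA end, 2 rose. The median of the 10 was 0.29 in the authors' deposited table. The 2 that rose are not genes of the cap-binding complex proper. Eif4a3 (chromosome 11, 119288363 to 119300089), a helicase of the exon junction complex, had 0.56 ± 0.21 (adjusted p = 0.0181) in the authors' deposited table. Its rebuilt means were 758 in wildtype, 730 in single-targeted lines, 1255 in the clones and 1027 in the other line. Eif4g2 (chromosome 7, 111067750 to 111083030), a scaffold that lacks the cap-binding partner's site, had 0.46 ± 0.17 (adjusted p = 0.0184) in the authors' deposited table. The genes of the cap-binding complex proper, Eif4a1 (0.31), Eif4e (0.18) and Eif4g1 (0.36), were not called in the authors' deposited table. Their adjusted p-values were 0.171, 0.387 and 0.118.

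Eif4g3, another scaffold gene, with the longest span of the members (215487 bases; chromosome 4, 137993022 to 138208508), had -0.47 ± 0.28 (adjusted p = 0.116) by the authors' deposited table and was not called. It was the lowest uncalled value. The binding proteins that hold eIF4E back gave 0 calls of 4. Eif4ebp1 had 0.02, Eif4ebp2 -0.14, Eif4ebp3 -0.30 and the eIF4E transporter Eif4enif1 0.04 in the authors' deposited table. Eif4ebp3 had the second lowest uncalled value, from rebuilt means of 37 in wildtype and 21 in the clones.

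Eif5a (chromosome 11, 69916714 to 69921958) encodes eIF5A, the protein that carries hypusine and helps ribosomes through difficult peptide bonds. Its rebuilt mean count was 1776 in wildtype and 1879 in single-targeted lines, then 3829 in the clones and 3899 in the other dual-targeted line. The 2 dual-targeted genotypes were close to each other and both far above the other groups. The fold change in the authors' deposited table was 1.08 ± 0.18 (SE; adjusted p = 1.05e-08), which was the lowest adjusted p among the members. Its paralogue Eif5a2 had 0.06 ± 0.23 (adjusted p = 0.871) in the authors' deposited table. The processed copy Eif5al3-ps (chromosome 5, 90132229 to 90132675) had 1.35 ± 0.49 (adjusted p = 0.00429) in the authors' deposited table, with rebuilt means of 13 in wildtype and 36 in the clones. Its level is low and its reads may come from Eif5a, so its value is uncertain.

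Among the elongation factors, 2 of 5 eEF1 genes rose, both for subunits that recharge eEF1A. Eef1b2 (chromosome 1, 63176825 to 63180486) had rebuilt means of 2113 in wildtype, 2252 in single-targeted lines, 4182 in the clones and 3832 in the other line. The authors' deposited table gave 0.88 ± 0.22 (adjusted p = 1.80e-04). Eef1d (chromosome 15, 75894205 to 75909556) had 822, 844, 1687 and 1489 in that order and 0.89 ± 0.25 (adjusted p = 6.61e-04) by the authors' deposited table. In both genes the single-targeted mean stayed near wildtype. Eef1g, for a further subunit of eEF1B, was at 0.37 ± 0.22 (adjusted p = 0.14) in the authors' deposited table. Eef1a1, the tRNA carrier, at 0.26 ± 0.17 (adjusted p = 0.23), was uncalled by the authors' deposited table. Eef1e1, a scaffold protein of the synthetase complex, was at 0.09 in the authors' deposited table.

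Eef2k, the kinase that inhibits eEF2 (chromosome 7, 120842831 to 120907450), was the 1 member that fell. Its rebuilt mean count was 307 in wildtype, 188 in single-targeted lines, 135 in the clones and 197 in the other line, so every mutant mean lay below wildtype. The log2 fold change was -0.86 ± 0.27 (adjusted p = 0.00249) in the authors' deposited table. Eef2, its substrate, had 0.06 ± 0.18 (adjusted p = 0.829) in the authors' deposited table. Of 6 methyltransferase genes that modify eEF1A or eEF2, 1 rose: Eef1aknmt (chromosome 1, 162533671 to 162548541) at 0.55 ± 0.21 (adjusted p = 0.0187) in the authors' deposited table. Of the 4 pseudogenes, Eif5al3-ps alone was called, and Eif4a-ps4 had 0.45 (adjusted p = 0.143) by the authors' deposited table.

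In single-targeted lines 0 of 67 members with an adjusted p were called in the authors' deposited table (DESeq2), where 2.96% of all genes were called, 1.49% higher and 1.47% lower. The members' median there was -0.01, and at an unadjusted p under 0.05 there were 3 of 70 (4.29%), against 12.4% of all genes. The 3 were Eef2kmt, Eif2s2 and Eef2k. Eef2kmt, the methyltransferase of eEF2, had the largest value at 0.59 ± 0.29 (adjusted p = 0.0698) in the authors' deposited table. Its rebuilt mean was 246 in single-targeted lines against 145 in wildtype, 168 in the clones and 187 in the other line. Eif2s2 came next at 0.38 ± 0.19 (adjusted p = 0.113) in the authors' deposited table. The lowest values were Eef2k at -0.42 ± 0.37 (adjusted p = 0.191) and Eif4b, a helper of the eIF4A helicase, at -0.22 ± 0.20 (adjusted p = 0.405) in the authors' deposited table. The median SE of a member was 0.15 in this table. Of the 25 genes that rose in dual-targeted lines, 14 had a rebuilt single-targeted mean above wildtype and 11 did not. Their median rebuilt log2 ratio to wildtype was 0.04 in single-targeted lines and 0.62 in dual-targeted lines. Over 11099 genes whose mean count was at least 50 in every table these medians are 0 by construction.

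The direct comparison of dual-targeted with single-targeted lines asks whether the lines with 3 mutant alleles differ from those with 2. There 16 of 66 members (24.2%) were higher and 0 lower in the authors' deposited table, where 7.06% of all genes were called, 4.37% higher and 2.69% lower. Among genes with mean counts of at least 500 there, 8.78% were higher and 2.83% lower in the authors' deposited table. The median of the members was 0.25 in that authors' deposited table. Of the 16, 14 had also risen against wildtype, a comparison that shares the dual-targeted libraries. How many of all called genes overlap in this way was not computed. Eif6 had 1.01 ± 0.24 (adjusted p = 4.77e-04) and Eif5a 0.97 ± 0.21 (adjusted p = 1.19e-04) in the authors' deposited table. Eif3b had 0.79 ± 0.24 (adjusted p = 0.00551), and Eef1b2 had 0.75 ± 0.24 (adjusted p = 0.00914), in the authors' deposited table. Eif1a had 0.71 ± 0.20 (adjusted p = 0.0033) in the authors' deposited table. These 5 were the members that also passed an adjusted p under 0.01.

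By role, the 16 covered 3 of 5 eEF1 genes, 3 of 8 start site and joining factors and 5 of 14 eIF3 genes. The eEF1 genes included Eef1d at 0.75 ± 0.34 (adjusted p = 0.0314) and Eef1g at 0.57 ± 0.27 (adjusted p = 0.0484) in the authors' deposited table. Eef1g (chromosome 19, 8967041 to 8978479) was not called against wildtype, and its rebuilt means were 3641 in wildtype, 3010 in single-targeted lines, 5112 in the clones and 4670 in the other line. The single-targeted mean was the lowest of the 4. Eif4b showed the same order, with 3219, 2463, 4059 and 3845, and had 0.57 ± 0.25 (adjusted p = 0.04) in the authors' deposited table. These 2 were the genes called against single-targeted lines and not against wildtype.

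The other eIF3 genes called in this comparison were Eif3g at 0.68 ± 0.27 (adjusted p = 0.0228) and Eif3k at 0.64 ± 0.27 (adjusted p = 0.0326) in the authors' deposited table. Eif3a had 0.52 ± 0.24 (adjusted p = 0.0475) and Eif3h 0.47 ± 0.19 (adjusted p = 0.0371) in the authors' deposited table. Eif2s2 had 0.73 ± 0.31 (adjusted p = 0.0278) and Eef1aknmt 0.71 ± 0.28 (adjusted p = 0.021) in the authors' deposited table. Eif4a3 had 0.56 ± 0.25 (adjusted p = 0.0428) and Eif5b 0.50 ± 0.21 (adjusted p = 0.0398) in the authors' deposited table. The eIF2B genes gave 0 calls of 5, with the largest uncalled values for Eif2b2 (0.60, adjusted p = 0.0859) and Eif2b4 (0.54, adjusted p = 0.0867) in the authors' deposited table. The lowest were Eif2ak4 at -0.33 and Eef2kmt at -0.32 in the authors' deposited table. Eef2k had -0.11 ± 0.21 (adjusted p = 0.661) and was not called against single-targeted lines in the authors' deposited table.

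**Figure D2:**
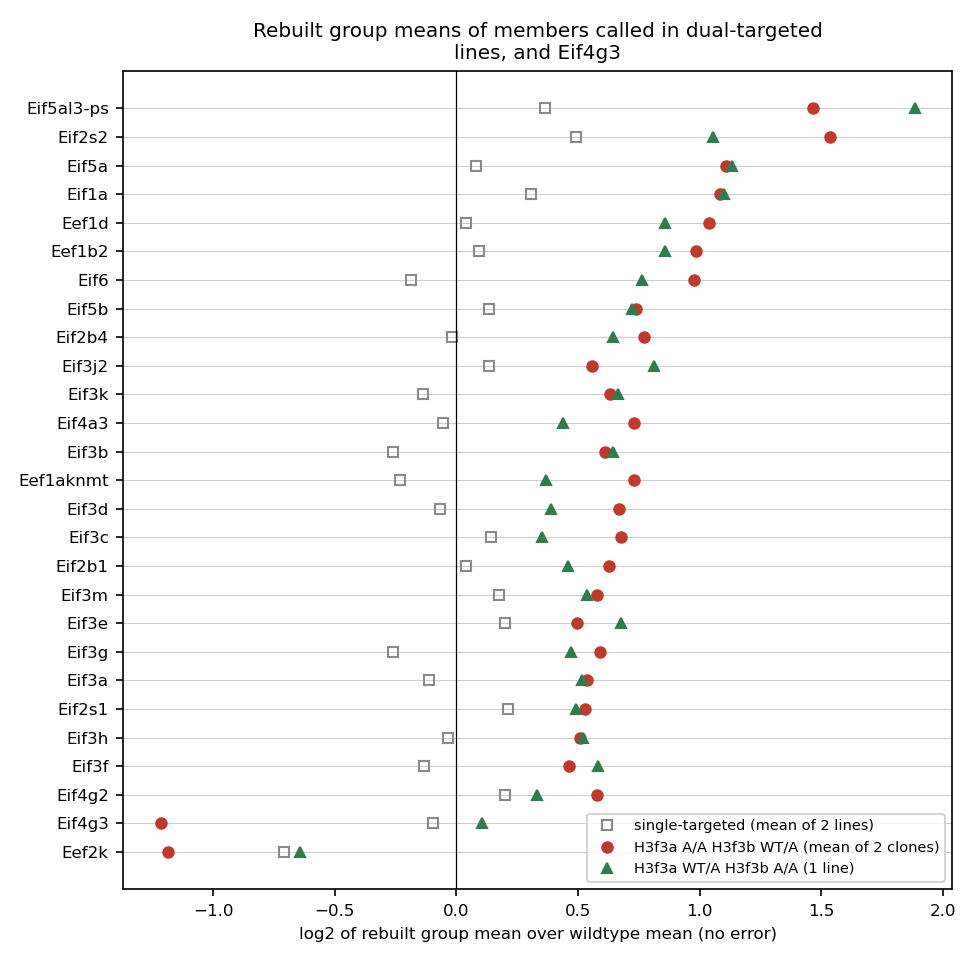
Log2 of the rebuilt group mean over the wildtype mean, with no error, for the 26 members called in dual-targeted lines and Eif4g3. Squares are the mean of 2 single-targeted lines, circles the mean of 2 clones and triangles the 1 H3f3a-heterozygous line. For the 25 genes that rose, circles and triangles all lie right of wildtype, while 14 squares do. The 25 were called on the lines that the circles and triangles show.

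The dual-targeted group mixes 2 genotypes, and the authors' deposited table of the clones alone leaves the other line out. In it 17 of 69 members were higher (24.6%) and 2 lower, where 19.3% of all genes were called, 9.05% higher and 10.3% lower. At mean counts of at least 500 the authors' deposited table had 11.9% higher and 10% lower. The median was 0.34 in that authors' deposited table. The 17 were all among the 25 of the whole dual-targeted group, of which the clones are a part. The matching overlap over all genes was not computed. Leaving aside the low-count copy Eif5al3-ps, the largest were Eif2s2 at 1.47 ± 0.25 (adjusted p = 4.66e-08), Eif5a at 1.06 ± 0.21 (adjusted p = 2.52e-06) and Eif1a at 1.03 ± 0.22 (adjusted p = 1.08e-05) in the authors' deposited table. Next came Eef1d at 0.93 ± 0.28 (adjusted p = 0.00223), Eef1b2 at 0.90 ± 0.25 (adjusted p = 0.00103) and Eif6 at 0.90 ± 0.23 (adjusted p = 3.48e-04) in the authors' deposited table. These 6 rises passed an adjusted p under 0.01.

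Other rises in the clones were those of Eif2b4 (0.65 ± 0.28, adjusted p = 0.0317), Eef1aknmt (0.65 ± 0.23, adjusted p = 0.0132) and Eif4a3 (0.64 ± 0.24, adjusted p = 0.0189) in the authors' deposited table. Eif5b (0.64 ± 0.25, adjusted p = 0.0221) and Eif2b1 (0.54 ± 0.24, adjusted p = 0.0473) also rose per the authors' deposited table. Of the eIF3 genes, Eif3c (0.60 ± 0.23, adjusted p = 0.0226), Eif3d (0.59 ± 0.23, adjusted p = 0.0225), Eif3b (0.53 ± 0.22, adjusted p = 0.0371) and Eif3m (0.51 ± 0.21, adjusted p = 0.0385) rose, by the authors' deposited table. Eif4g2 (0.52 ± 0.19, adjusted p = 0.0183) and Eif5al3-ps (1.07 ± 0.59, adjusted p = 0.0344) made up the 17 of the authors' deposited table. The largest uncalled values were Eif2b2 (0.56, adjusted p = 0.0663) and Eif3k (0.52, adjusted p = 0.0674), and the smallest were Eif4ebp3 (-0.40) and Eef1akmt1 (-0.35), in the authors' deposited table. The 8 genes that rose over all 3 dual-targeted lines and were not called in the clones alone were Eif2s1 and the eIF3 genes Eif3a, Eif3e, Eif3f, Eif3g, Eif3h, Eif3j2 and Eif3k. The median of the 14 eIF3 genes was 0.46 in the clones and 0.49 over the 3 lines, and all 14 lay above 0 in both. With 2 lines in place of 3 the SE was larger, at a median of 0.22 for members in the authors' deposited table.

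All 25 had a rebuilt mean above wildtype in the clones and in the H3f3a-heterozygous line, with medians of 0.67 and 0.64 in log2 ratio. The 25 were called on these same lines together, so values above wildtype in both genotypes are favoured by that choice. Over the 69 members in every table these medians were 0.44 and 0.36. Clones and line lay on opposite sides of wildtype for 9 members, and for 5 they were over 0.5 apart in log2. The matching shares over all genes were not computed, so these counts do not show whether the members differ from other genes. The widest gap was at Eif4g3, with rebuilt means of 358 in the clones, 893 in the line, 831 in wildtype and 778 in single-targeted lines. The clones were low and the other groups lay close together. In the clones it fell by 1.12 ± 0.22 (SE; adjusted p = 1.13e-06) in the authors' deposited table. Eef2k also fell there, by 1.04 ± 0.30 (adjusted p = 8.68e-04) by the authors' deposited table, and its mean in the line was below wildtype as well. The remaining 3 of the 5 were Eef1akmt1, Eef1akmt3 and Eif4ebp3, all with rebuilt means under 154 and with 0 calls. Since the line is 1 library, a difference between the genotypes and one between libraries cannot be told apart.

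**Figure D3:**
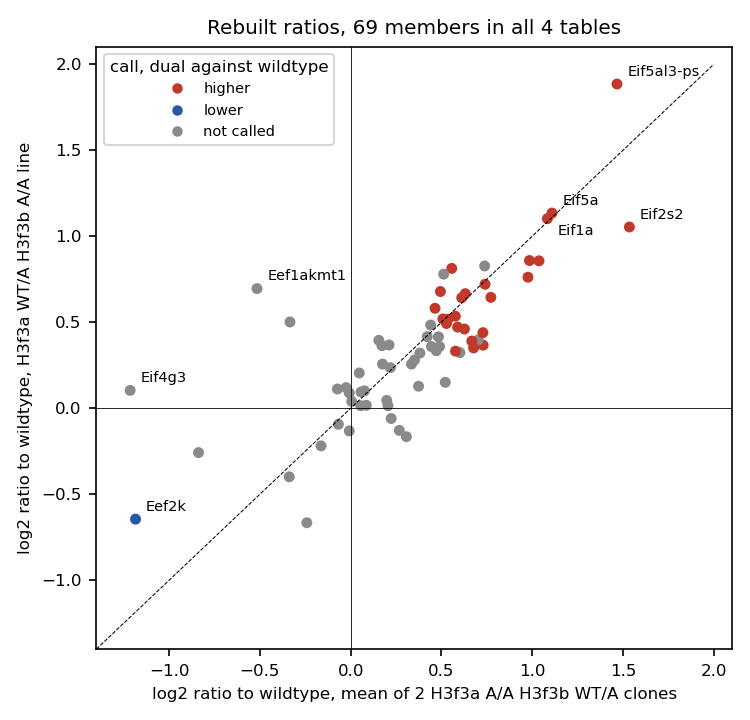
Rebuilt log2 ratio to wildtype in the mean of the 2 clones (x axis) and in the 1 H3f3a-heterozygous line (y axis) for 69 members, coloured by the call in dual-targeted lines. The dashed line marks equal ratios. All 25 red points, called on the lines of both axes together, lie above 0 on both, and Eif4g3 lies far left at a y value near 0.

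The median annotated span of the members was 15352 bases, against 17178 for all annotated genes of the table and 26188 for its 10040 protein-coding genes at mean counts of at least 50. Over those protein-coding genes, the rank correlation of span with the fold change in the authors' deposited table was -0.293, and over the 69 members it was -0.28. Both run across genes, which are not independent replicates. Among the shortest 23 members (447 to 8919 bases) 9 rose, with a median of 0.39 in the authors' deposited table. Among the middle 23 (10493 to 23401 bases) 10 rose, with a median of 0.37 in the authors' deposited table. Among the longest 23 (24033 to 215487 bases) 6 rose and Eef2k fell, with a median of 0.14 in the authors' deposited table. With the linear trend on log span taken out of all genes, 22 of the 25 were still called. Eif3f (adjusted p = 0.0621), Eif3g (0.0544) and Eif3j2 (0.087) were lost, and Eef2k stayed called (0.0047). The same step took the count against single-targeted lines from 16 to 10. The shares of all genes called after this step, and within these ranges of span, are not given here. These counts therefore do not show whether members kept their calls more often than other genes.

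**Figure D4:**
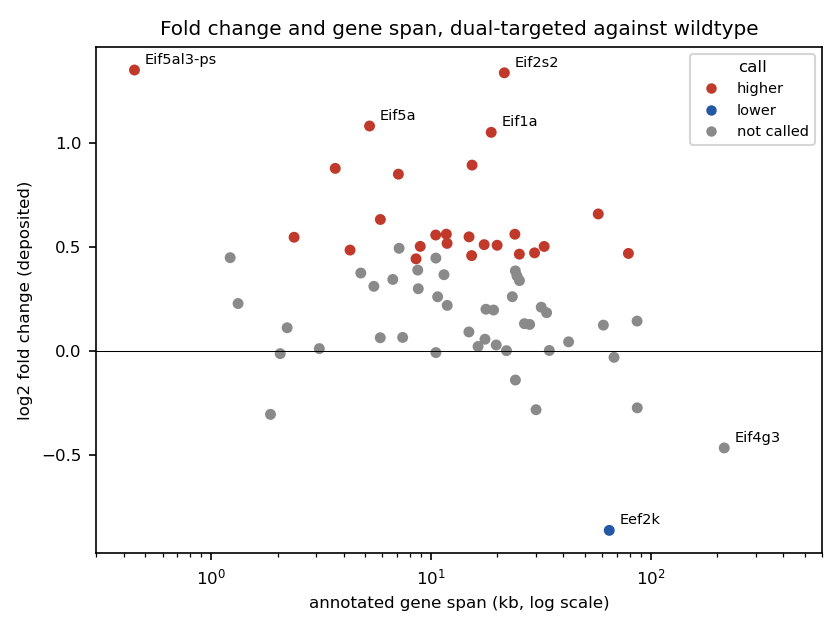
Annotated gene span in kb (log scale) against the deposited log2 fold change, dual-targeted lines against wildtype, for 69 members coloured by call. The 25 red points span most of the range, and Eef2k and Eif4g3, the lowest points, are among the long genes.

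The 25 genes lie on 10 chromosomes, and in the comparison in which they were called each stood above its neighbours' median. That follows from the call, since the lowest of the 25 had 0.44 and the highest neighbour median was 0.43 in the authors' deposited table. For genes whose mean count was at least 50 within 1 Mb on either side, the median fold change ran from -0.16 to 0.43 over the 25 neighbourhoods, with a median of 0.05, in the authors' deposited table. Around Eif2s2 the 21 neighbours had a median of -0.16, and around Eif5a the 58 neighbours had 0.05, in the authors' deposited table. The highest neighbour median was that of the 12 genes around Eef1b2, at 0.43 with 5 of them higher, against 0.88 for Eef1b2 itself, in the authors' deposited table. The smallest gaps were those of Eif3h (0.47 against 0.40 for 4 neighbours) and Eif3f (0.44 against 0.35 for 7) in the authors' deposited table. In the clones, which are part of the same dual-targeted group, 24 of the 25 stood above their neighbours' median. Eif3f (0.39 against 0.42) did not, by the authors' deposited table. The 9 neighbours of Eef2k had a median of 0.02 and 0 calls in the authors' deposited table.

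Related genes of protein synthesis that the symbol rule leaves out were followed as 7 lists of 71 genes in all. In dual-targeted lines 8 of the 71 (11.3%) rose and 2 fell, with a median of 0.10 in the authors' deposited table, where 10.8% of all genes were higher. Of 11 genes for termination, recycling and scanning, 3 rose, including Etf1, the release factor, at 0.61 ± 0.17 (adjusted p = 0.00147), and Ddx3x, a helicase of initiation, at 0.62 ± 0.18 (adjusted p = 0.00172), in the authors' deposited table. Of 8 poly(A)-binding genes, Pabpc1 rose (0.61 ± 0.18, adjusted p = 0.00317) and Pdcd4, an inhibitor of eIF4A, fell (-0.66 ± 0.23, adjusted p = 0.00825) in the authors' deposited table. Of 9 genes of hypusine and diphthamide synthesis, Dph3 rose (0.67 ± 0.20, adjusted p = 0.00259) and Dohh had 0.28 (adjusted p = 0.34) in the authors' deposited table. Of 11 genes of mTORC1 and MNK control, 0 rose and Tsc1, which restrains mTORC1, fell (-0.70 ± 0.17, adjusted p = 2.30e-04), while Akt1s1 had 0.32 (adjusted p = 0.216), in the authors' deposited table.

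Of 21 aminoacyl-tRNA synthetase genes, 2 rose: Aimp1, a scaffold of the synthetase complex, by 1.13 ± 0.21 (adjusted p = 7.62e-07), and Hars, the histidine enzyme, by 0.78 ± 0.21 (adjusted p = 6.81e-04), in the authors' deposited table. Of 9 mitochondrial translation factors, Gfm1 alone rose (0.46 ± 0.18, adjusted p = 0.0286) and Mtif2 had -0.29 (adjusted p = 0.157) in the authors' deposited table. The 2 phosphatase subunits that restore eIF2, Ppp1r15a (0.41) and Ppp1r15b (0.12), were not called in the authors' deposited table. In single-targeted lines 0 of the 71 rose and 3 fell: Dhps (-0.97 ± 0.27, adjusted p = 0.00207), which starts hypusine synthesis, and the synthetases Kars (-0.58) and Farsa (-0.55), in the authors' deposited table. All genes gave 1.49% higher and 1.47% lower there. Against single-targeted lines 5 of 71 (7.04%) were higher and 0 lower in the authors' deposited table, where all genes gave 4.37% and 2.69%. In the clones 7 (9.86%) were higher and 3 (4.23%) lower in the authors' deposited table, where all genes gave 9.05% and 10.3%.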

How the data were processed

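TT-seq was done on 3 wildtype, 2 single-targeted and 3 dual-targeted samples. Per the submitters' processing notes, STAR, SAMtools, featureCounts and DESeq2 were used, without versions, and the builds named are GRCm38.p6 and mm10. Whether reads were counted by strand is not given in the sources used. The authors deposited 4 tables of their own comparisons, fitted separately. Per the file headers, these hold a mean normalized count per gene (a signal averaged over libraries, not raw counts), a log2 fold change with its SE, a p-value and an adjusted p-value, all made by the authors with DESeq2. Fold changes were smaller than their p implied for 100% of called genes, so they are read as shrunken, by an unnamed estimator, and sizes from different tables are not strictly comparable.

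Positive fold changes mean higher in the mutant group, or in dual-targeted against single-targeted lines. This was checked on called genes at a mean count of at least 50 in all tables (100% had the sign of the rebuilt means). Group means were solved from the 4 mean columns, with the single-targeted, dual-against-single and clone tables divided by 1.02, 0.945 and 1.04. Of 15571 genes, 2 rebuilt values fell below 0. Calls used an adjusted p under 0.05, as the authors adjusted it over each whole table. The trend on span was fitted to signed z values from the deposited p and re-adjusted over all genes. The step that takes out the trend was run on simulated z values with random spans and large shifts. Of 200 shifted genes among 15571, 198 were called. That checks the code and does not show how often shifts of the members' size would be called.

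The rule for members uses symbols alone, but this group of genes, the lists, the tests and the alternatives were chosen with earlier results of these data known. Named genes are every called member, the 2 largest and 2 smallest uncalled per comparison, and the 2 genes of lowest adjusted p in each related list. Members not called that are given for the sake of a complex, and Dhps, Kars, Farsa and the lineage markers, were named after their values were seen. Positions came from GENCODE mouse release 21 (GRCm38) for 68 members and from RefSeq for 2, Eef1aknmt and Eef1a1-ps1. Scripts ran in Python 3.11.15 with pandas 2.3.3, numpy 2.4.6, matplotlib 3.10.9 and scipy 1.17.1.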

Additional observations from a re-analysis of the deposited data

Results flagged for a closer look

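For 16 genes the authors' deposited test of dual-targeted against single-targeted lines, which is the test of whether the responses of the 2 groups differ, passed an adjusted p under 0.05. Their log2 differences in the authors' deposited table, all higher in dual-targeted lines, were 1.01 for Eif6, 0.97 for Eif5a and 0.79 for Eif3b. They were 0.75 for Eef1b2, 0.75 for Eef1d, 0.73 for Eif2s2, 0.71 for Eif1a and 0.71 for Eef1aknmt in the authors' deposited table. The others were 0.68 for Eif3g, 0.64 for Eif3k, 0.57 for Eef1g, 0.57 for Eif4b, 0.56 for Eif4a3, 0.52 for Eif3a, 0.50 for Eif5b and 0.47 for Eif3h in the authors' deposited table. No group has 4 values per gene in the files used, so single libraries could not be examined.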

How the results depend on the processing

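Of 73 alternatives, 67 left a count within 1.5 times, or a median within the members' median SE, of the reported value, and 6 moved it. These limits are wide, since a count of 17 in place of 25 lay within them. Some alternatives could hardly move a result: counts of 0 stayed 0, and chromosomes 8 and 14, left out in 1 of them, hold 1 member each. The 67 are therefore not a measure of robustness. At an adjusted p under 0.01 in place of 0.05, the genes higher numbered 9 rather than 25 in dual-targeted lines, 5 rather than 16 against single-targeted lines and 6 rather than 17 in the clones. With the span trend out, 10 rather than 16 were higher against single-targeted lines. Without dual-targeted replicate 3, the H3f3a-heterozygous line, 17 were higher and 2 lower against wildtype (25 and 1 with it), with a median of 0.34. That is the comparison of the clones already given above. Eif4g3 is the gene added. Other libraries could not be left out of comparisons deposited as finished tables. Scaling the tables to the same sum moved the members' median rebuilt log2 ratio of dual-targeted lines from 0.42 to -0.056, and that of all genes from 0 to -0.54, so members stood 0.48 above all genes, and 59 of 69 stayed above the median gene. Rebuilt ratios are therefore relative to the median gene. Deposited fold changes do not depend on this step, but they too rest on normalised counts, with a median of 0.01 over all genes in dual-targeted lines. They are likewise relative to the typical gene, and a change in total new RNA cannot be read from them. No paired analysis was possible because the files hold no values per library and the replicate numbers only name different lines. Depth per library is unknown, and with SEs near 0.20 a log2 difference of the members' median size was not detectable for most single genes.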

Other observations

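Several members overlap other annotated genes, and whether counting was stranded is not stated, so reads could be shared. Snora41, a small nucleolar RNA inside Eef1b2, had a mean count of 111 and rose by 1.21 (adjusted p = 1.74e-04) in the authors' deposited table of dual-targeted lines. Gm26457, another one inside Eef1b2, had 0.44 (adjusted p = 0.135) in the authors' deposited table. Naprt, an enzyme of NAD synthesis whose annotation overlaps Eef1d on the same strand, rose by 1.69 (adjusted p = 4.74e-07) in the authors' deposited table at 6.61% of the mean count of Eef1d. Spg11, on the other strand from Eif3j1 with a mean count 240.5% of it, fell by 0.72 (adjusted p = 3.23e-04) in the authors' deposited table, while Eif3j1 had 0.13. Rfc4, on the other strand from Eif4a2, rose by 0.55 (adjusted p = 0.0369) in the authors' deposited table, where Eif4a2 had 0.34 (adjusted p = 0.148). How far shared reads enter these values was not tested. These overlaps were picked out after their values were seen.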
